A study of Homo sapiens with 18 samples.

Results

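Transcripts of a group of stress response genes were examined in RWPE1, an established benign human prostate epithelial line with basal features. The group comprised 8 genes: NUPR1, CEBPB, its antisense transcript CEBPB-AS1, ATF5 and its opposite-strand partner NUP62, IER3 and its opposite-strand partner XXbac-BPG252P9.10 (now named IER3-AS1), and DDIT4. Of the 8, 7 had a row in the deposited table of 57773 rows, and 6 of these passed the minimum of 10 counts in at least 3 libraries that left 5816 rows for testing. IER3 fell below that minimum, and CEBPB-AS1 was not analysed here. The group was put together from earlier results of the same libraries. NUPR1 had been named for its differences of both effector lines from the neutral line, CEBPB and NUP62 for the difference of the activating from the neutral line, and XXbac-BPG252P9.10 for the tamoxifen effect in the neutral line, while the others joined as opposite-strand partners or as genes of the same pathway. Tamoxifen effects on these rows are for this reason a description. The adjusted p of 0.05 serves there only to count rows, which restates the choice in part, and no p-value is given.

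The cells stably carried 1 of 3 tamoxifen-inducible constructs called MACCs, in which the DNA-binding domain of the androgen receptor, which recognises androgen response elements (AREs), is joined to the ERT2 hormone-binding domain and a 3X FLAG tag. The neutral construct (3X) has no effector. KRAB, a transcriptional repressor domain, was added in the repressive construct, and VP64, a strong transactivator, in the activating one. Constructs were delivered by lentivirus in a plasmid with the PGK promoter, and all lines were kept under blasticidin in Keratinocyte SFM with epidermal growth factor and pituitary extract. Each line was given ethanol vehicle or tamoxifen for 48 hours, which made 6 groups of 3 biological replicates. The labels state the dose as 1.5 uM in one field and as 1.25 uM in another, and this was not resolved. The neutral line with tamoxifen is the control for the drug and for binding of the construct without an effector, and each line was made once, so that the construct and the history of the line cannot be told apart.

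NUPR1, CEBPB, ATF5 and DDIT4 belong to the circuitry of the integrated stress response. In this response kinases such as HRI, PERK and GCN2 phosphorylate the initiation factor eIF2, which lowers general translation and favours translation of ATF4, a transcription factor that induces genes for amino acid supply, tRNA charging and stress adaptation. C/EBP proteins, including CEBPB and the growth arrest factor DDIT3 (CHOP), form dimers with ATF4 family members. IER3 is an immediate early gene induced by growth factors and NF-kB, and NUP62 encodes a central channel protein of the nuclear pore that is not part of this response.

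Total counts per library lay between 675609 and 792282 (median 755562), so that 3 counts correspond to 3.79 to 4.44 CPM, and rows of few counts carry large errors. The basal keratin KRT5 had 680 to 1135 counts in every library and KRT14 435 to 857, whereas KLK3, COL1A2, PDGFRB, VWF, PTPRC and CD3E had 0 counts in all 18 libraries. Whether reads were counted with regard to strand is not given in the sources used here. MT-ND6, the only protein gene on the light strand of the mitochondrial genome, held 71.7% to 79.6% of the counts of the 13 mitochondrial protein genes. Of counts at annotated rows, 89.0% fell on rows that share exon sequence with a gene on the other strand. Such rows made up 23.0% of annotated rows. Counts were thus uneven between strands, and the name of a row does not settle which gene of an overlapping pair its reads came from. The kit keeps strand, and if reads were assigned to the opposite strand, a row would hold reads of its partner, so that the NUP62 row could stand for ATF5 and the XXbac-BPG252P9.10 row for IER3, and the reverse. In that case a row without such a partner, as for NUPR1 and DDIT4, would hold only the minority of reads assigned the other way. The strand of the counts was not resolved, and every gene name here means the row of that name. Because these are bulk samples, fewer cells expressing a gene and less RNA per cell cannot be told apart.

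ATF5 and NUP62 start close together and point towards each other, which is why their promoters are shown with those of CEBPB and DDIT4. The windows run from 250 bases before to 50 bases after the annotated start and come from RefSeq on GRCh38.p14, whereas all other coordinates are on GRCh37, the build of the counts. They lie at chr19:49929455-49929754 on the minus strand for NUP62, chr19:49928955-49929254 on the plus strand for ATF5 (the second of 3 windows), chr20:50190580-50190879 on the plus strand for CEBPB (the second of 2) and chr10:72273674-72273973 on the plus strand for DDIT4. Capitals mark the 1 motif match found.
NUP62: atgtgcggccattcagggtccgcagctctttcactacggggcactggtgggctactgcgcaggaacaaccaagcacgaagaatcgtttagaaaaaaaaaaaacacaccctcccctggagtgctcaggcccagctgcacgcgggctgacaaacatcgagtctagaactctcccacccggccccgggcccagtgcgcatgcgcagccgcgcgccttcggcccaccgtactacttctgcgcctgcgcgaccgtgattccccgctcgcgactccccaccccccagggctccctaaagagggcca
ATF5: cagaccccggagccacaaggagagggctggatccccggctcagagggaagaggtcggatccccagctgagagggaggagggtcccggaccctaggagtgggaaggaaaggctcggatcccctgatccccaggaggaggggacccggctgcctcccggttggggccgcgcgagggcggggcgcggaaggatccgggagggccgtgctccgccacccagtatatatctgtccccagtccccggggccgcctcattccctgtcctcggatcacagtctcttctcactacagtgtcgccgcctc
CEBPB: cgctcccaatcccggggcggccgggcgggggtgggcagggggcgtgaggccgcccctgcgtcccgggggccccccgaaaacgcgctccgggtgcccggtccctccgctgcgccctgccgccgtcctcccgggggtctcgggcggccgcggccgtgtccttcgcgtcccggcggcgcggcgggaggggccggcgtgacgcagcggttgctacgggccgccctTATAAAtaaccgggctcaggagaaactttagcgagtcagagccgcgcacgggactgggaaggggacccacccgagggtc
DDIT4: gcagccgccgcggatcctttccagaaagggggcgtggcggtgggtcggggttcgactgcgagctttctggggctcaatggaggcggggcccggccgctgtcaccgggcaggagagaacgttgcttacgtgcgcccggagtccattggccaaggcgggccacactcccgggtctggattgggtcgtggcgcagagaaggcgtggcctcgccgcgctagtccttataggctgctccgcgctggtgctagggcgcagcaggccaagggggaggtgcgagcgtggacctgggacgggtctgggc

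RefSeq windows were matched for 6 of the 8 genes, 9 windows in all, and not for NUPR1 and IER3. The match in the CEBPB window is a TATA box (TATAAA) that begins 29 bases before the start, a motif held by 11.5% of all 35116 windows. On either strand, none of the 9 windows held the core of the CCAAT enhancer-ATF response element through which ATF4 acts (TGATGNAA, in 3.62% of all windows), the cAMP response element (TGACGTCA, 1.85%), the C/EBP palindrome (TTGCGCAA, 0.151%), the ARE (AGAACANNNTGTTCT, 0.00285%) or its half-site (AGAACA, 14.8%, which is also contained in the ARE). These are matches to letters only, and elements outside the windows were not searched.

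The exon maps of the 3 pairs show how the partners overlap. NUP62 (chr19:50410082-50433021, minus strand) and ATF5 (chr19:50431959-50437192, plus strand) share 565 exonic bases, all noncoding in both genes. IER3 (chr6:30710976-30712325, minus strand) and XXbac-BPG252P9.10 (chr6:30710534-30711415, plus strand) share 440 bases, also noncoding. CEBPB (chr20:48807367-48809205, plus strand), a gene of a single exon, shares 231 of its coding bases with CEBPB-AS1 (chr20:48801135-48808035, minus strand). In the first 2 pairs nearly all counts sat on the partner. ATF5 held 97 counts over the 18 libraries against 1774 for NUP62, or 5.18% of the pair (exact 95% interval 4.22% to 6.29%, counting error only). IER3 held 53 against 1721, or 2.99% (2.25% to 3.89%). NUPR1 (chr16:28544029-28550329, minus strand) and DDIT4 (chr10:74033678-74035794, plus strand) have no annotated exon on the other strand, although NUPR1 shares 909 bases with a noncoding RNA on its own strand.

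**Figure D1:**
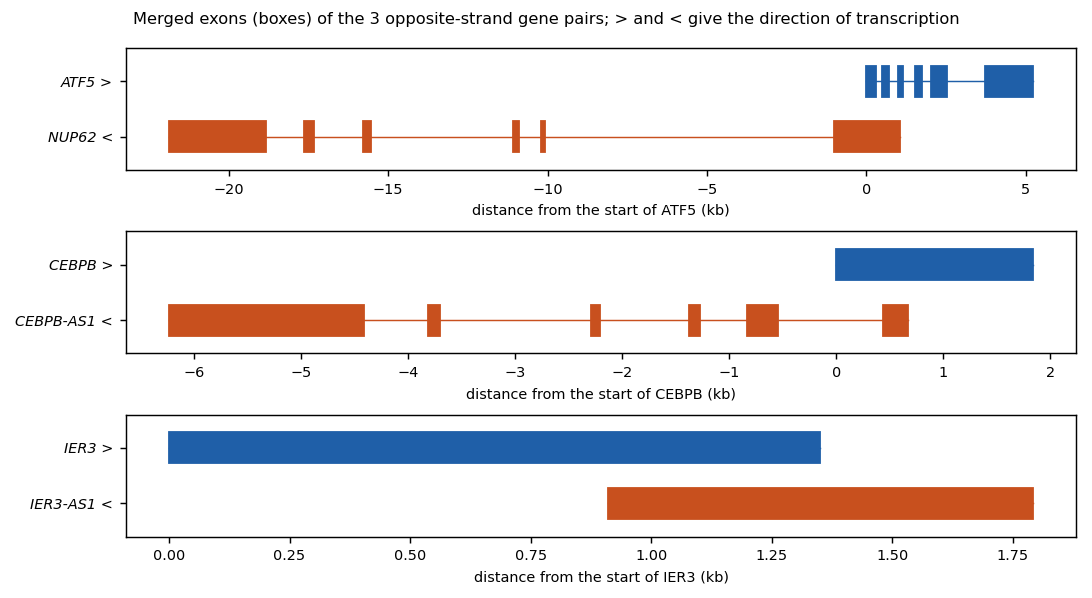
Merged exons (boxes) of NUP62 and ATF5, CEBPB-AS1 and CEBPB, and IER3-AS1 and IER3, drawn to scale as the distance in kb from the start of ATF5, CEBPB and IER3. Arrowheads beside the names give the direction of transcription, and the boxes overlap over 565, 231 and 440 bases.

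NUPR1, a small chromatin-associated protein induced by many stresses and a known ATF4 target, was lower after tamoxifen in both effector lines and not in the neutral line. Its normalized counts in the neutral line were 107, 129 and 143 with vehicle and 143, 169 and 163 with tamoxifen. They went from 103, 166 and 168 to 62.1, 54.6 and 80.7 in the repressive line, and in the activating line from 133, 188 and 144 to 101, 104 and 62.6. All tamoxifen libraries of each effector line lay below all of its vehicle libraries, whereas in the neutral line the ranges touched. The log2 fold change was 0.32 (SE 0.21) in the neutral, -1.15 (SE 0.23) in the repressive and -0.80 (SE 0.22) in the activating line. Relative to the neutral line the effect was -1.47 (SE 0.31) in the repressive and -1.12 (SE 0.31) in the activating line. In order of mean, neutral tamoxifen (158 ± 13.6, SD, n = 3 in every group here), activating vehicle (155 ± 29.1), repressive vehicle (146 ± 36.8) and neutral vehicle (126 ± 17.98) overlapped one another, followed by activating tamoxifen (89.4 ± 23.2) and repressive tamoxifen (65.8 ± 13.5), which overlapped each other. The value in the activating line leaned on single libraries, being -0.64 without its vehicle replicate 2 and -0.59 without its tamoxifen replicate 3, and in neither case past the adjusted p of 0.05. Its difference from the neutral line also lost its call without either library.

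CEBPB, a basic leucine zipper factor of inflammation, differentiation and stress, was lower with tamoxifen in the activating line and had a higher mean in the neutral line. In the neutral line it had 181, 173 and 173 normalized counts with vehicle and 226, 221 and 259 with tamoxifen (log2 fold change 0.42, SE 0.15). Activating libraries went from 171, 228 and 177 to 125, 103 and 140.04, a change of -0.65 (SE 0.16), or 0.639-fold. The ranges of vehicle and tamoxifen did not overlap in either line. For the repressive line, 171, 151 and 158 with vehicle stood against 178, 147 and 154 with tamoxifen, and the log2 fold change was 0.00 (95% interval -0.31 to 0.31). The difference of the activating from the neutral line was -1.07 (SE 0.22), and that of the repressive from the neutral line -0.42 (SE 0.22). The 3 activating tamoxifen libraries (123 ± 18.5) were the lowest of all 18. Without the activating vehicle replicate 2, its highest library, the change in the activating line was -0.51 and no longer passed.

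The pattern of NUP62 resembled that of CEBPB. It had 92.6, 79.4 and 106 normalized counts with vehicle and 150.3, 140.3 and 131 with tamoxifen in the neutral line (log2 fold change 0.60, SE 0.19), where the 3 tamoxifen libraries were the highest of all 18. Activating libraries went from 92.0, 107 and 103 to 79.0, 65.1 and 58.0 (-0.58, SE 0.20), again without overlap. Repressive libraries at 82.6, 102 and 89.1 with vehicle overlapped with those at 95.1, 78.9 and 69.2 with tamoxifen (-0.17, SE 0.20). The difference from the neutral line was -1.18 (SE 0.28) for the activating and -0.77 (SE 0.28) for the repressive line. The calls within a line were near the threshold, and were lost under 8 of 12 other ways of processing in the neutral and 11 of 13 in the activating line, whereas that of the difference between these lines held under all.

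ATF5, an ATF4-related factor of the stress response whose exons meet those of NUP62, had few counts. Its raw counts in the neutral line were 5, 7 and 7 with vehicle and 9, 10 and 4 with tamoxifen, and in the activating line 10, 7 and 4 against 11, 2 and 5, so that the groups overlapped in both. Repressive libraries had 3, 6 and 5 with vehicle and 1, 1 and 0 with tamoxifen, without overlap. The ratio of the depth-scaled sums, 2 counts against 14, was 0.163, with an exact 95% interval from 0.0180 to 0.711. Such intervals cover counting error only and leave out the spread between replicates. In the neutral line the ratio was 1.20 (0.625 to 2.33) and in the activating line 0.879 (0.442 to 1.73). DESeq2 gave no adjusted p for ATF5 at this depth, and with edgeR it did not pass in any line. The NUP62 row, on the other strand of the same locus, had 297 counts in the repressive vehicle and 232 in the repressive tamoxifen libraries.

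XXbac-BPG252P9.10, a noncoding RNA whose row covers the end of IER3, was higher with tamoxifen in the neutral line. It rose there from 70.8, 81.3 and 71.9 to 145, 109 and 118 normalized counts (log2 fold change 0.73, SE 0.20), without overlap. In the repressive line 99.7, 69.2 and 91.9 stood against 117, 116 and 95.4 (0.34, SE 0.20), and in the activating line 88.3, 64.7 and 80.6 against 90.2, 86.5 and 81.1 (0.14, SE 0.21), and both pairs of groups overlapped. The effect was -0.40 (SE 0.28) in the repressive and -0.59 (SE 0.29) in the activating line relative to the neutral line. It ranged from 0.60 to 0.82 in the neutral line over the other ways of processing, and lost its call under 6 of 12 of them, among them each removal of the neutral vehicle replicate 1 or 3 (0.70 and 0.71) and of the tamoxifen replicate 1 or 3 (0.60 and 0.77). IER3 itself, a regulator of survival after stress, had 0, 6 and 2 raw counts in neutral vehicle, 2, 2 and 2 in neutral tamoxifen, 5, 3 and 2 in repressive vehicle, 5, 3 and 7 in repressive tamoxifen, 2, 4 and 0 in activating vehicle and 1, 1 and 6 in activating tamoxifen libraries. The groups of each line overlapped, and no difference was detectable in this row. Whether IER3 itself changed cannot be told from it, since the row on the other strand held most counts of the pair.

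DDIT4 (REDD1), an inhibitor of mTORC1 signalling that ATF4 and glucocorticoids induce, was lower with tamoxifen in the repressive line. It went there from 76.0, 62.9 and 58.8 to 28.1, 44.1 and 28.3 normalized counts (log2 fold change -0.99, SE 0.26), or 0.505-fold. These 3 tamoxifen libraries were the lowest of all 18. Activating libraries at 81.0, 106 and 94.1 with vehicle lay above 76.0, 67.9 and 74.6 with tamoxifen (-0.36, SE 0.23). Neutral libraries at 116, 67.9 and 76.8 overlapped with 81.9, 82.8 and 68.2 (-0.16, SE 0.23). That small value turned to 0.10 without the high vehicle replicate 1. The effect in the repressive line was -0.83 (SE 0.35) relative to the neutral line, and that in the activating line -0.21 (SE 0.33).

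**Figure D2:**
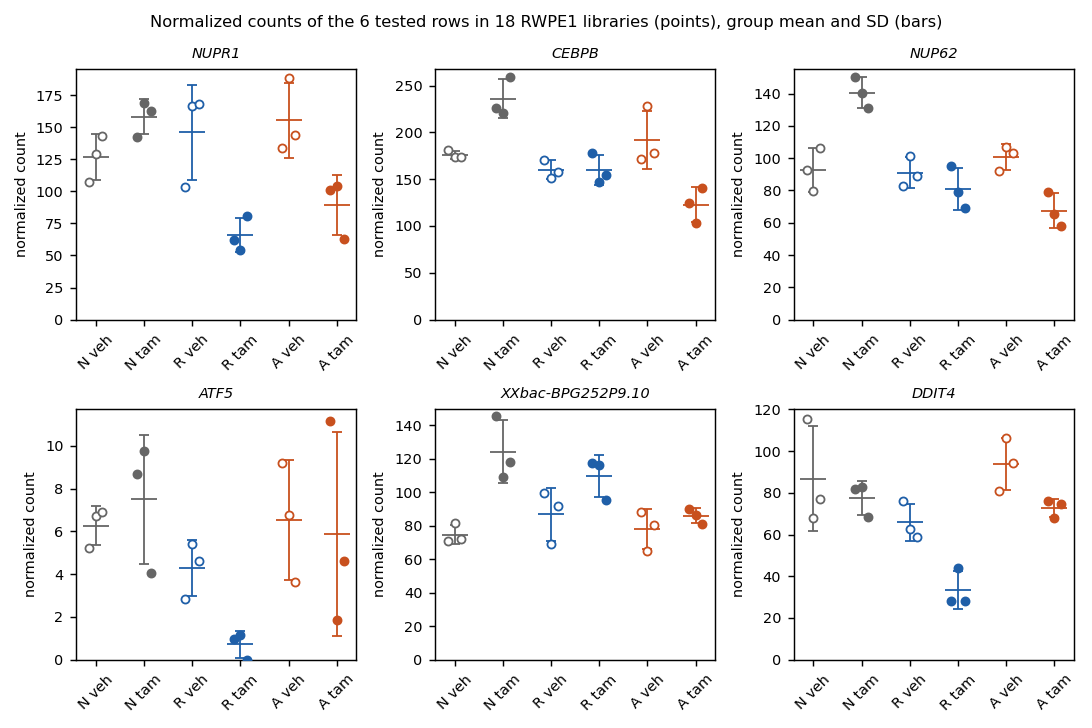
Normalized counts (y axes, from 0) of the 6 tested rows in each of 18 libraries (points, open for vehicle and filled for tamoxifen) with group mean and SD (bars), for the neutral (N), repressive (R) and activating (A) line. NUPR1 had its lowest group mean in tamoxifen-treated repressive libraries (54.6 to 80.7), which overlapped with the tamoxifen-treated activating ones (62.6 to 104). NUP62 was highest in tamoxifen-treated neutral libraries (131 to 150.3) and DDIT4 lowest in tamoxifen-treated repressive ones (28.1 to 44.1).

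Counted over the group, 2 of 6 rows passed an adjusted p of 0.05 in the neutral line, NUP62 and XXbac-BPG252P9.10, both higher, where 0.327% of all rows were higher and 0.447% lower by the same test. The repressive line had 2 of 6, NUPR1 and DDIT4, both lower, where 4.02% of all rows were lower and 5.62% higher. The activating line had 3 of 6, NUPR1, CEBPB and NUP62, all lower, where 1.46% of all rows were lower and 1.34% higher. Only NUPR1 passed in both effector lines. As differences from the neutral line, NUPR1 passed for the repressive line, where 3.85% of all rows passed (1.51% lower and 2.34% higher). NUPR1, CEBPB and NUP62 passed for the activating line, where 0.619% of all rows passed (0.258% lower and 0.361% higher). All 6 estimates were lower than in the neutral line in either effector line, and these comparisons share the neutral libraries. The rows were chosen on such contrasts, and nothing is read from these counts. Between the activating and the repressive line 0 of 6 passed, where 4.25% of all rows did (1.63% higher and 2.61% lower). CEBPB was nearest to the threshold there, with -0.65 (SE 0.22), and passed under 5 of the other ways of processing.

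Vehicle-treated libraries, which the choice of the rows did not name although the tamoxifen contrasts contain them, show the levels before induction. With DESeq2 0 of 6 rows passed in any of the 3 comparisons of vehicle-treated lines, but none of the 6 had an adjusted p for activating against neutral, nor ATF5 in any, so that these could not pass. With edgeR, which adjusts over all rows, 0 passed as well, where 2.51% of all rows passed with DESeq2 for repressive against neutral (0.997% higher and 1.51% lower), 0.808% for activating against neutral (0.12% higher and 0.688% lower) and 1.72% for activating against repressive (0.739% higher and 0.98% lower). At an unadjusted p under 0.05, 1 row passed, DDIT4, for activating against repressive (10.1% of all rows). It was higher in the activating (81.0 to 106) than in the repressive vehicle libraries (58.8 to 76.0), which did not overlap. That difference was 0.51 on the log2 scale (95% interval 0.05 to 0.97), with an adjusted p of 0.281 by DESeq2 and 0.411 by edgeR. CEBPB was also higher in all activating than in all repressive vehicle libraries, barely so in its lowest library, by 0.26 (95% interval -0.04 to 0.56, DESeq2 adjusted p 0.445). For NUPR1 the intervals of the vehicle differences ran from -0.21 to 0.63 for repressive against neutral and from -0.12 to 0.71 for activating against neutral, so that baseline differences of that size remain within the error.

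**Figure D3:**
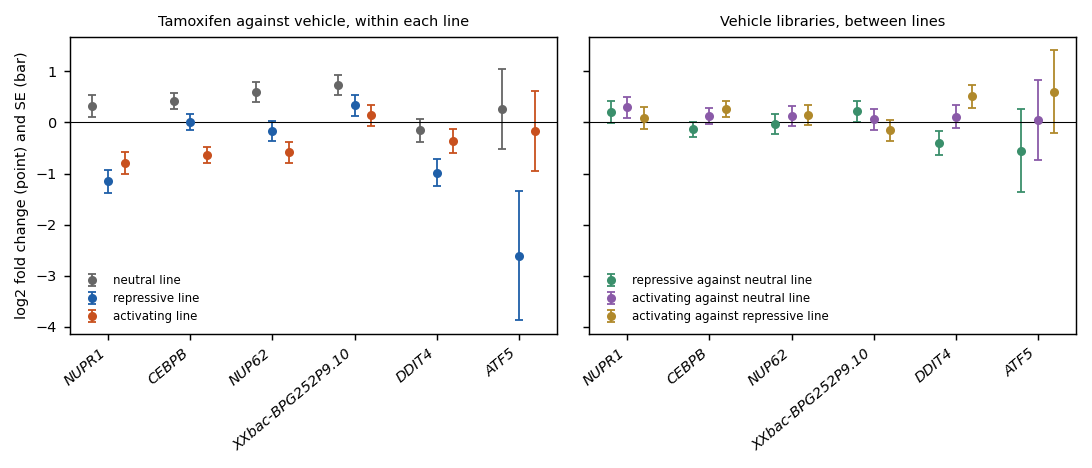
Log2 fold change (points) and SE (bars) of the 6 tested rows. The left panel gives tamoxifen against vehicle in each line and the right panel the differences between vehicle-treated lines. NUPR1 is at -1.15 and -0.80 in the effector lines and 0.32 in the neutral line, and the wide bars of ATF5 come with its 97 counts.

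To set these rows in their pathway, 39 further genes of the integrated stress response were listed from general knowledge, of which 24 had enough counts. Earlier results of these data were known by then. The pathway was taken up because of rows chosen on these contrasts, so the list is not independent of that choice. With tamoxifen 12 of 24 fell and 0 rose in the repressive line (DESeq2 adjusted p under 0.05, where 4.02% of all rows fell), and 23 of 24 estimates were below 0. The median log2 fold change of the list was -1.06, against -0.02 over all rows. With edgeR 11 of 24 passed, and under the other ways of processing 9 to 12. In the neutral line 0 of 24 passed with either tool, where 0.774% of all rows did, and 1 had an unadjusted p under 0.05, where 7.75% did. The median was 0.11, and 3 of the 24 rows had an adjusted p from DESeq2. In the activating line 23 of 24 estimates were again below 0, with a median of -0.72 against 0.00 over all rows, but 1 row passed and 2 with edgeR, where 2.8% of all rows passed with DESeq2. At an unadjusted p under 0.05 there were 10 of 24, where 10.4% of all rows were. Only 4 of the 24 rows kept an adjusted p in that comparison after independent filtering, and 1 to 4 rows passed under the other ways of processing.

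Amino acid transporters led the list by abundance. SLC3A2, the heavy chain of the amino acid exchanger LAT1, went from 81.6, 71.9 and 102 to 40.8, 51.1 and 21.0 normalized counts in the repressive line (log2 fold change -1.19, SE 0.27, DESeq2 adjusted p 2.54e-04). SLC7A5, the light chain of the same transporter, went from 579, 578 and 507 to 393, 391 and 358 (-0.54, SE 0.12, DESeq2 adjusted p 1.01e-04). SLC1A5, a glutamine transporter, went from 108, 97.0 and 107 to 59.2, 44.1 and 62.9 (-0.91, SE 0.23, DESeq2 adjusted p 0.00144). None of these groups overlapped, and each of the 3 calls held under all 13 other ways of processing. SLC7A5 shares 271 exonic bases with RP4-536B24.2 on the other strand (-0.91 in the repressive line, SE 0.35, DESeq2 adjusted p 0.0691) and SLC1A5 shares 780 with a gene without a symbol, whereas SLC3A2 has no such partner. The estimates in the activating line were -0.32 (SE 0.25) for SLC3A2, -0.11 (SE 0.11) for SLC7A5 and -0.19 (SE 0.21) for SLC1A5, and none passed. The fall relative to the neutral line was tested for each, and passed for SLC1A5 (-1.32, SE 0.31, DESeq2 adjusted p 0.00109) and SLC3A2 (-1.21, SE 0.37, DESeq2 adjusted p 0.0211; 0.0573 with edgeR), and not for SLC7A5 (-0.40, SE 0.16, DESeq2 adjusted p 0.133).

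MARS, the methionyl-tRNA synthetase, fell in both effector lines, from 57.0, 71.0 and 89.1 to 32.0, 31.3 and 19.9 normalized counts in the repressive line (-1.38, SE 0.29, DESeq2 adjusted p 4.54e-05) and from 60.7, 79.2 and 59.7 to 23.3, 32.6 and 33.2 in the activating line (-1.16, SE 0.28, DESeq2 adjusted p 0.00120). It had 67.0 ± 15.1 and 55.4 ± 3.79 without and with tamoxifen in the neutral line, and its difference from that line did not pass for the repressive (-1.11, SE 0.39, DESeq2 adjusted p 0.0589) or the activating line (-0.89, SE 0.39, 0.264). MARS overlaps DDIT3 as well as ARHGAP9 on the other strand, and since the DDIT3 row fell in the repressive line as well, these 2 rows are not separate evidence.

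Lower rows that fell in the repressive line are named here after their values were seen. DDIT3, the stress-induced C/EBP factor, went from 42.1 ± 24.0 to 5.35 ± 2.25 normalized counts (-2.99, SE 0.56, DESeq2 adjusted p 3.09e-06). Its neutral line had 21.7 ± 6.17 with vehicle and 27.9 ± 12.8 with tamoxifen. Both the repressive and the activating line (42.7 ± 11.5 with vehicle) thus started from a higher mean, which enters their differences from the neutral line. TRIB3, a pseudokinase that feeds back on ATF4, went from a mean of 33.2 to 6.49 (-2.33, SE 0.51). STC2, a secreted stress glycoprotein, went from 33.5 ± 14.1 to 5.03 ± 4.36 (-2.69, SE 0.52). The serine and one-carbon enzymes PHGDH (-2.28, SE 0.62) and SHMT2 (-1.65, SE 0.58), the tRNA synthetases AARS (-1.99, SE 0.56) and EPRS (-2.16, SE 0.74) and the mitochondrial enzyme PCK2 (-2.58, SE 0.88) completed the 12. Of these, the calls of SHMT2, EPRS and PCK2 were lost without each of several single libraries, that of AARS without the repressive vehicle replicate 2 (DESeq2 adjusted p 0.0543), and that of EPRS also with edgeR. ATF4 itself, regulated largely in translation, was at -0.73 (SE 0.44, DESeq2 adjusted p 0.338) and did not pass. For the activating line DDIT3 (-1.34, SE 0.46), TRIB3 (-1.76, SE 0.43) and STC2 (-1.28, SE 0.41) had lower estimates but no adjusted p from DESeq2, and TRIB3 passed with edgeR.

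Tested as differences between lines, 7 of 24 rows of the list fell further in the repressive than in the neutral line (DESeq2, background lower 1.51%; 3 with edgeR). They were SLC1A5 and SLC3A2 as given above, DDIT3 (-3.35, SE 0.72), STC2 (-2.86, SE 0.65), PHGDH (-2.40, SE 0.79), AARS (-2.28, SE 0.72) and TRIB3 (-2.07, SE 0.65). Between the activating and the neutral line 0 of 24 passed with DESeq2, which gave 4 of them an adjusted p, or with edgeR (background 0.619%). At an unadjusted p under 0.05 there were 7 of 24, where 7.41% of all rows were, and 22 of 24 estimates were lower (median -0.89). Between the 2 effector lines 0 of 24 passed with either tool (background 4.25%), and DESeq2 gave 16 of them an adjusted p. Of the 24, 6 had an unadjusted p under 0.05, where 13.4% of all rows had. The estimates were higher in the activating than in the repressive line for 18 of 24 and lower for 6. Their median was 0.61, against 0.03 over all rows. No single row was thus shown to differ between the effector lines, although most estimates were lower in the repressive line. Whether the list as a whole differed was not tested. In the vehicle libraries 0 of 24 rows passed in any comparison with either tool, and 1 or 2 at an unadjusted p under 0.05, where 7.1% to 10.4% of all rows did.

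**Figure D4:**
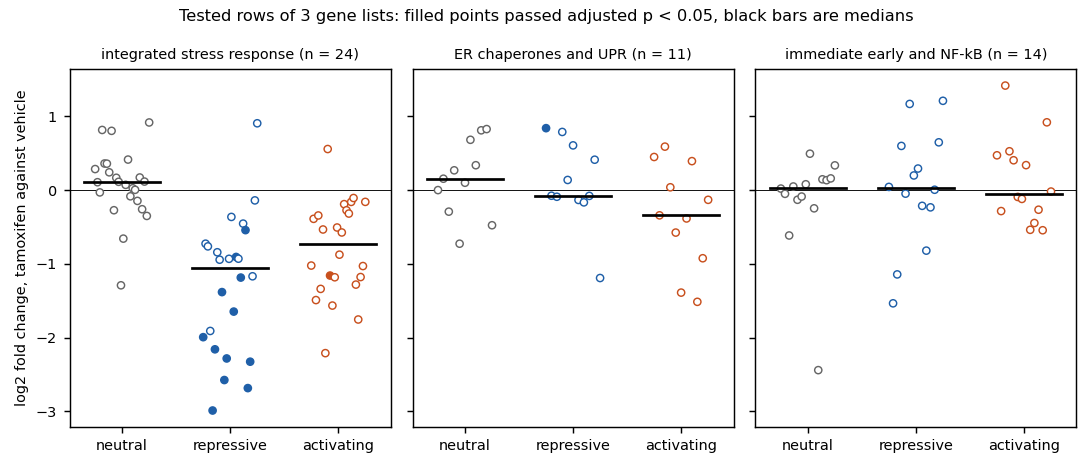
Log2 fold change with tamoxifen of the tested rows of 3 gene lists (points, filled where the DESeq2 adjusted p was under 0.05) in each line, with list medians (black bars). The medians of the integrated stress response list were 0.11, -1.06 and -0.72 in the neutral, repressive and activating line. Of 14 immediate early rows 0 passed in any line, but most had too few counts for an adjusted p in the neutral and activating line.

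Rows on the strand opposite listed genes were counted separately. Of 6 such tested rows, which leave out MARS as a listed gene itself, 2 fell in the repressive line (DESeq2, where 4.02% of all rows fell), SLC4A5, opposite the mitochondrial folate enzyme MTHFD2 (-0.99, SE 0.18, adjusted p 2.27e-06), and SLC7A11-AS1, opposite the cystine transporter SLC7A11 (-1.36, SE 0.46, adjusted p 0.0289). In the neutral and the activating line 0 passed with DESeq2 or edgeR, and 0 and 2 had an unadjusted p under 0.05, where 7.75% and 10.4% of all rows had. The call of SLC7A11-AS1 was lost without each of 4 single libraries (repressive vehicle replicates 1 and 2, tamoxifen replicates 2 and 3), with an adjusted p of up to 0.175.

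Among the upstream genes, EIF2AK1, which encodes the heme-regulated eIF2 kinase HRI, fell in all lines. It had 1049, 985 and 990.1 normalized counts with vehicle and 799, 866 and 796 with tamoxifen in the neutral line (-0.30, SE 0.10, DESeq2 adjusted p 0.04998, 0.248 with edgeR). Repressive libraries went from 945, 985 and 1132 to 523, 513 and 498 (-0.997, SE 0.0985, DESeq2 adjusted p 1.19e-21), and activating ones from 1054, 891 and 893 to 578, 689 and 527 (-0.66, SE 0.10, DESeq2 adjusted p 3.78e-09). The fall was larger in the repressive than in the neutral line (-0.70, SE 0.14, DESeq2 adjusted p 2.48e-05). EIF2AK1 shares 532 exonic bases with AIMP2, a scaffold of the tRNA synthetase complex, on the other strand. Which of these genes the reads of the EIF2AK1 row came from was not resolved. The call in the neutral line was lost without any 1 of the 6 libraries of that line. Of 9 tested rows for eIF2 kinases, eIF2 and eIF2B, 2 fell in the repressive line, EIF2AK1 and the eIF2B subunit EIF2B1 (-1.07, SE 0.34, named after its value was seen), and 1, EIF2AK1, in each of the other lines, where 4.02% of all rows fell in the repressive, 0.447% in the neutral and 1.46% in the activating line. Relative to the neutral line, 0 of these 9 rows, EIF2AK1 included, passed for the activating line with DESeq2 or edgeR (DESeq2 background 0.619%). At an unadjusted p under 0.05 there were 2 of 9, where 7.41% of all rows were. EIF2B1 shares 538 exonic bases with DDX55 on the other strand.

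The most abundant tested row of the C/EBP family besides CEBPB was CEBPD. This steroid- and stress-inducible member, which earlier results had already singled out, fell in the neutral line from 131, 112 and 138 to 73.2, 65.3 and 67.2 normalized counts (-0.89, SE 0.24, DESeq2 adjusted p 0.00903, 0.0514 with edgeR) and in the repressive line from 153, 142 and 130.5 to 24.3, 30.2 and 33.5 (-2.28, SE 0.26, DESeq2 adjusted p 1.21e-15). Activating libraries at 151, 65.7 and 138 with vehicle stood against 141, 189.8 and 141, which overlapped. Relative to the neutral line the effect on CEBPD was 1.30 (SE 0.33, DESeq2 adjusted p 0.00658) in the activating line, where that on CEBPB was -1.07, and -1.39 (SE 0.35, DESeq2 adjusted p 0.00310) in the repressive line. The call in the neutral line was lost without the vehicle replicate 1 or 3 or the tamoxifen replicate 2 or 3, with an adjusted p of up to 0.102. Of 3 tested family rows other than CEBPB, 2 fell in the repressive line (4.02% of all rows fell), CEBPD, known from earlier results, and DDIT3, already counted above, and CEBPG was at -1.91 (SE 0.89) with no adjusted p.

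**Figure D5:**
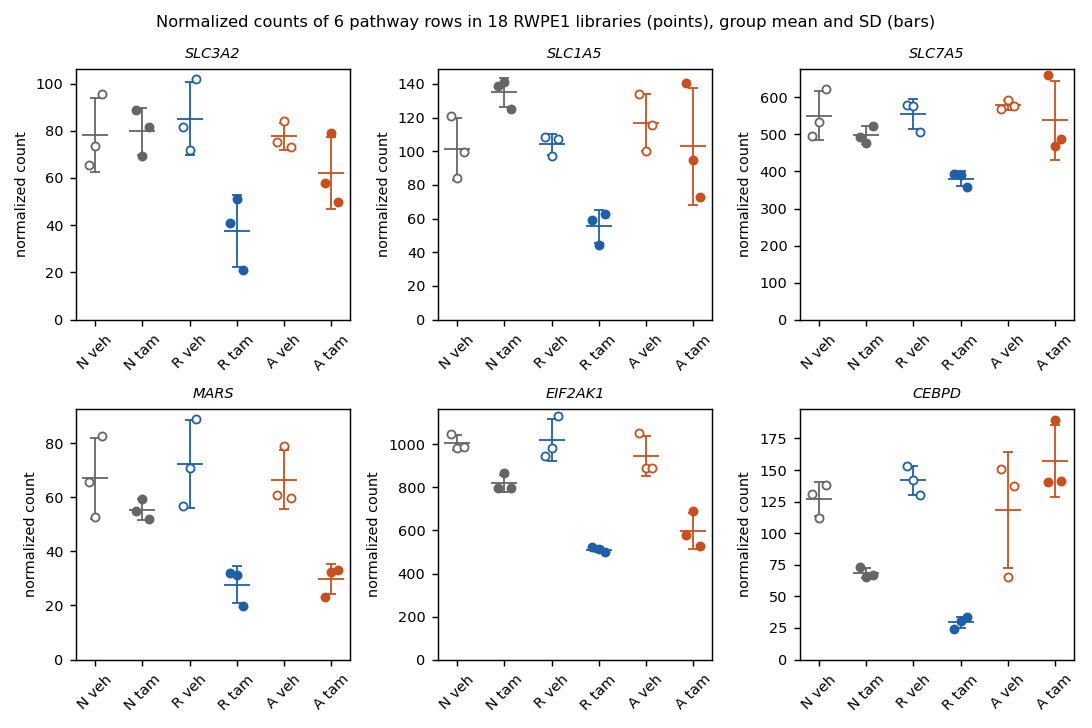
Normalized counts (y axes, from 0) of SLC3A2, SLC1A5, SLC7A5, MARS, EIF2AK1 and CEBPD in each library (points, open for vehicle, filled for tamoxifen) with group mean and SD. The tamoxifen-treated repressive libraries are the lowest group for SLC3A2 (21.0 to 51.1), SLC1A5 (44.1 to 62.9), SLC7A5 (358 to 393) and CEBPD (24.3 to 33.5).

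Few rows passed in the other lists. Of 11 tested rows for endoplasmic reticulum chaperones and the unfolded protein response, 1 passed in the repressive line, the lectin chaperone CALR, which rose from 86.4, 87.1 and 69.8 to 152, 145 and 138 normalized counts (0.84, SE 0.21, DESeq2 adjusted p 7.74e-04; 5.62% of all rows rose). CALR shares 270 bases with a gene without a symbol on the other strand. In this list 0 passed in the neutral and the activating line with DESeq2 or edgeR (2 and 3 at an unadjusted p under 0.05, where 7.75% and 10.4% of all rows were). Of 14 immediate early and NF-kB rows, the set to which IER3 belongs, 0 passed in any line with either tool, and 0, 2 and 0 had an unadjusted p under 0.05 in the neutral, repressive and activating line, where 7.75%, 19.7% and 10.4% of all rows had. Of 2 tested mTORC1 regulators beside DDIT4 and 2 tested nucleoporins beside NUP62, 0 passed in any line with either tool or at an unadjusted p under 0.05. Most rows of these lists had too few counts for a DESeq2 adjusted p in the neutral and activating line. MARS (mean 53.1) had none in the neutral line, and all 14 immediate early rows but FOSL2 had lower means. TRIB3 (mean 29.9) had none in the activating line, and only FOSL2, JUNB and JUND of the 14 had higher means. MTOR, AKT1S1 and NUP188 lay below both. For such rows the lack of a call does not show a lack of change. Over rows opposite the genes of these lists in the repressive line, 1 of 4 rose for the eIF2 list, 3 of 7 rose for the endoplasmic reticulum list, 2 of 4 (1 with edgeR) rose for the immediate early list, 1 of 3 fell for the C/EBP family (MARS, already counted above as a listed gene), and 0 of 3 passed for each of the mTORC1 and nucleoporin lists (background 9.65% in either direction).

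Across the 18 libraries the levels of the rows were also compared with each other and with 1457 rows of at least 50 mean normalized counts, as Pearson's r of log2(normalized count + 1). These values describe libraries that share treatments, and carry no test. Within the group CEBPB and NUP62 were most alike (r = 0.82), followed by ATF5 and DDIT4 (0.78) and NUPR1 and NUP62 (0.65), whereas XXbac-BPG252P9.10 and DDIT4 had r = -0.41. The rows nearest to CEBPB were RFFL, opposite LIG3 (0.82), H1F0, a linker histone (0.81), and DEAF1, opposite EPS8L2 (0.75), and those nearest to NUP62 were RP1-20B21.4, opposite RCC2 (0.80), H1F0 (0.80) and DEAF1 (0.76), so that 2 of 3 were shared. For NUPR1 they were RP5-1050D4.3, opposite CAMTA2 (0.87), RP11-498C9.13, opposite the proline synthesis gene PYCR1 (0.85), and PITPNM3, opposite PIMREG (0.85). DDIT4 was nearest to PCDHA11 (0.89), AC009133.14, opposite MAZ (0.89), and EPB41L4A, opposite EPB41L4A-AS1 (0.88). XXbac-BPG252P9.10 was nearest to COL17A1 (0.73), PXN-AS1, opposite PXN (0.69), and ITGB4 (0.68), of which COL17A1 and ITGB4 encode hemidesmosome components.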

How the data were processed

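The deposited table holds expected counts, the number of reads per gene estimated by Salmon (1.9.0 in the submitters' processing notes, which also name DESeq2 1.28.0 and GRCh37), from Illumina Stranded mRNA libraries of 18 RWPE1 samples. The authors did not scale them for depth or length. Of the values 1.10% were not whole, and all were rounded. Rows that reached 10 counts in 3 or more libraries (5816, holding 97.6% of counts) were fitted with DESeq2 1.42.0 (R 4.3.3), 1 mean per group over all 18 libraries, median-of-ratios scaling, Wald tests and Benjamini-Hochberg adjustment with independent filtering. Normalized counts are counts divided by the size factor, and log2 fold changes are unshrunken. edgeR 4.0.16 (quasi-likelihood, TMM), total-count scaling, no row filter, no independent filtering, replicate number as a block, only the 6 libraries of a line, opposite-strand pairs added together and removal of each library served as alternatives. The code was tested on simulated counts. Exons came from GENCODE v44 on GRCh37, in which 96.1% of rows were matched by identifier, and symbols are those of the table. Lists covered the integrated stress response, eIF2 factors, endoplasmic reticulum chaperones, C/EBP family, immediate early genes, mTORC1 regulators and nucleoporins. The genes and lists were chosen with earlier results of these data known. Listed genes were named where the adjusted p was under 0.05 and the mean normalized count at least 50, up to 5 a comparison by absolute fold change, and exceptions are stated. For each tested row of the group with such a mean, the 3 most correlated rows were named. The p-values measure the spread between replicates of one line each. The 6 groups and 3 replicates are those of the labels.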

Additional observations from a re-analysis of the deposited data

Results flagged for a closer look

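The results here are those in which the effect of tamoxifen differed between 2 lines by the interaction test of DESeq2, over all 5816 rows. For the chosen rows the values restate the choice, which used these contrasts, and are no separate evidence. Relative to the neutral line they were -1.47 (log2 scale) in the repressive and -1.12 in the activating line for NUPR1, and -1.07 for CEBPB and -1.18 for NUP62 in the activating line. Among the pathway rows, the repressive and the neutral line differed in SLC1A5 (-1.32), SLC3A2 (-1.21), EIF2AK1 (-0.70), CEBPD (-1.39), DDIT3 (-3.35), TRIB3 (-2.07), PHGDH (-2.40), AARS (-2.28) and STC2 (-2.86). CEBPD in the activating line also differed from the neutral (1.30) and from the repressive line (2.69), the former in the opposite direction to CEBPB against the neutral line. The calls of SLC3A2, TRIB3, PHGDH and AARS in these comparisons were lost with edgeR, and those of SLC1A5, EIF2AK1, CEBPD, DDIT3 and STC2 held under every alternative that gave an adjusted p. The lists were taken up because of rows chosen on these contrasts, and CEBPD was already known to change. The pathway rows are therefore no independent evidence either. No cause of the differences between lines was tested.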

How the results depend on the processing

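With 675609 to 792282 counts per library, changes in rows of few counts, such as ATF5 and IER3, could not be measured well. The 2 chosen rows called in the neutral line became 0 with edgeR, 0 without independent filtering, 0 with only the 6 libraries of the line, 1 with the replicate block and 0 to 1 without single libraries. The 3 called in the activating line became 0 to 3 without single libraries, 0 without vehicle replicate 2 and 1 without tamoxifen replicate 3. The 1 row called as different between the repressive and the neutral line became 2 with total-count scaling, 2 with no row filter and 1 to 2 without single libraries. Between the effector lines 0 became 1 with no row filter and 0 to 1 without single libraries. For the integrated stress response list, whose alternatives were chosen after seeing the data, the 1 row of the activating line became 2 with edgeR, 3 with total-count scaling, 4 with no row filter, 2 without independent filtering, 4 with the replicate block, 4 with only the 6 libraries of the line and 1 to 3 without single libraries. NUPR1 against the neutral line in the activating line lost its call with edgeR, without independent filtering and without the neutral vehicle replicate 1, neutral tamoxifen replicate 2, activating vehicle replicate 2 or activating tamoxifen replicate 3. NUP62 lost its call in the activating line under 11 of 13 alternatives and in the neutral line under 8 of 12. Of the alternatives for single values of the chosen rows 684 kept direction and call, 34 lost a call and 10 gained one. A further 20, none of them past the threshold, turned sign, 8 of them for CEBPB in the repressive line (0.00), as did DDIT4 in the neutral line without vehicle replicate 1 (0.10), and for 2 no adjusted p was given. Total-count scaling shifted the median of all rows by -0.13 in the repressive line, by -0.13 in its difference from the neutral line and by 0.15 in the difference of the effector lines. Replicate numbers were not taken to pair the samples in the main fit. Deviations of same-numbered vehicle and tamoxifen libraries correlated from -0.30 to 0.14. Every library correlated best with its own number in the activating line only (0.05 to 0.14), so that pairing there was not settled. With the block 2, 3 and 1 chosen rows passed in the repressive line, in the activating against the neutral line and in the repressive against the neutral line, and 2 in the activating line. The causes of these changes were not tested.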
